A study of Mus musculus with 22 samples.

Results

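The Ifi200 family examined here comprised 10 genes, *Aim2*, *Ifi203*, *Ifi204*, *Ifi205*, *Ifi206*, *Ifi207*, *Ifi208*, *Ifi209*, *Ifi211* and *Ifi213*, of the 55487 gene identifiers in the count tables. The family was chosen by its read counts: *Ifi208* was listed at 0 in every library from mice that received the PRDM16 virus. The difference between the viruses therefore chose the members and is given below as a description with no test. RNA-seq was performed on brown adipose tissue (BAT) of 22 C57BL/6 mice, all labelled male, in 6 groups. CPEB2-WT and CPEB2-KO mice, bred from heterozygous parents, were either untreated and 21 to 25 weeks old (n = 5 per genotype), or were injected at 16 weeks with recombinant adeno-associated virus (AAV) and collected 9 weeks later, at 25 weeks (n = 3 per group). The dose was 20000000000 vector genomes in 30 μl PBS into the interscapular BAT (iBAT), and the virus carried either GFP, the control, or flag-tagged mouse PRDM16, a transcriptional regulator of brown fat identity (WT + AAV-GFP and KO + AAV-GFP compared with WT + AAV-PRDM16 and KO + AAV-PRDM16). CPEB2 is an RNA-binding protein that regulates translation. The KO mice lack it in all tissues and are survivors of an early postnatal loss, and no cell type restriction of the virus is given in the sources used here. The AAV cohort analysed here held no sham-injected group, so the viruses are compared with each other only. The untreated mice went without food for several hours before collection, a step that the paper does not give for the AAV mice.

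The Ifi200 proteins, also called PYHIN proteins, are encoded by interferon-inducible genes and combine, in most members, a pyrin domain for protein assembly with a HIN domain that binds DNA. They are known mainly from macrophages and other leukocytes, where AIM2 detects double-stranded DNA in the cytosol and assembles the inflammasome through the adaptor ASC (*Pycard*) and caspase-1 (*Casp1*). IFI204 is related to human IFI16 and acts with STING, the hub of cytosolic DNA sensing. The mouse genes arose by repeated duplication and lie side by side.

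In the GENCODE annotation of GRCm38 the 10 genes lay on chromosome 1 within 680.9 kb, chr1:173350879-174031810, with 3 on the plus and 7 on the minus strand. *Aim2* (ENSMUSG00000037860) stood at one end, chr1:173350879-173466040, and *Ifi205* (ENSMUSG00000054203) at the other, chr1:174011998-174031810. *Ifi208* (ENSMUSG00000066677) lay between them at chr1:173673675-173698395 on the plus strand. 4 other annotated genes of the cluster, *Mndal*, *Ifi214*, *Ifi202b* and the pseudogene *Ifi203-ps*, lay among the members. The sequences upstream of these genes are shown because they group the members and because the family is known to answer to interferon. Promoter windows from RefSeq (250 bases before to 50 after a start, GRCm38.p6) were found for 9 of the 10 members, *Ifi204* having none. Below are 120 bases before the outermost annotated start, with capitals marking a match to GAAANNGAA, a core of the motif bound by interferon regulatory factors, searched on both strands.
*Ifi206*, chr1:173491319-173491438, minus strand: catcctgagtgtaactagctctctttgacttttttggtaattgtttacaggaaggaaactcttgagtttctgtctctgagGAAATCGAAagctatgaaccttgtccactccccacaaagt
*Ifi208*, chr1:173673508-173673627, plus strand: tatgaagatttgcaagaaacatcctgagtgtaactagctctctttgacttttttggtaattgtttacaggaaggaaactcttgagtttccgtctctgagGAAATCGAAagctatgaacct
*Ifi209*, chr1:173630739-173630858, plus strand: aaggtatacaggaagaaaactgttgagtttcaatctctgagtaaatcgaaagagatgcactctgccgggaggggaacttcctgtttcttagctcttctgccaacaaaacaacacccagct
*Ifi207*, chr1:173741832-173741951, minus strand: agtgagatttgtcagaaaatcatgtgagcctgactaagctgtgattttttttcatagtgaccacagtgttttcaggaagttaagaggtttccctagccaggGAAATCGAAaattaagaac
*Ifi205*, chr1:174031811-174031930, minus strand: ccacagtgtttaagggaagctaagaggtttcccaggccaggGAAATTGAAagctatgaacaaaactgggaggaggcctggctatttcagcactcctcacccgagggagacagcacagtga

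The upstream windows of *Ifi206* and *Ifi208* were identical at 231 of 232 aligned bases (99.57%), although the genes lie on opposite strands, and *Ifi213* matched *Ifi208* at 233 of 235 (99.15%). *Ifi207* and *Ifi211* were identical at 216 of 247 aligned bases (87.45%). GAAANNGAA was present in the 250 bases before a start of 7 of the 9 members with a window, against 2342 of all 32851 windows of the same length (7.13%). The members are counted per gene, over 10 windows, and all other starts per window. The second window of *Ifi203* had no match. Several of the matching windows are near copies of each other, so they are not separate occurrences, and nothing is read from the 2 shares. *Aim2* and *Ifi209* held no match. In the *Ifi209* window the most similar 9 bases differed from the *Ifi208* match by 1 substitution, G1T, counted from 1 at the first base of the match. A match describes letters only and is not a binding site.

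Because the genes are duplicates, part of their sequence could not be assigned to a single gene. Of the 50-base stretches of each member's transcripts, 72.8% occurred in another annotated gene for *Ifi211*, 33.8% for *Ifi209*, 25.6% for *Ifi206* and 20.8% for *Ifi208*, down to 7.29% for *Ifi207* and 0.628% for *Aim2*. *Ifi211* shared 44.7% of its 50-base stretches with *Ifi205* and 30.1% with *Ifi204*, and *Ifi208* shared 18.1% with *Ifi213*. *Ifi203* also overlapped *Mndal* by 37 exonic bases on the same strand. How reads that fit several genes were counted is not given in the sources used here, so the values of *Ifi211* in particular may hold reads of its neighbours.

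The libraries held 61636889 to 143005309 counted reads in the AAV cohort and 55320927 to 162721202 in the untreated cohort. All 10 members passed the filter on low counts in both cohorts, *Ifi208* in the AAV cohort through the AAV-GFP groups alone. *Cpeb2* fell in KO from 12.4 to 5.49 CPM (counts per 1000000 reads) with AAV-GFP, a log2 fold change of −1.18 ± 0.14 (SE; edgeR adjusted p = 0.0200), and *Prdm16* was 45.9 to 122 CPM in WT + AAV-PRDM16 and 69.2 to 128 in KO + AAV-PRDM16 against 23.9 to 40.2 in the AAV-GFP mice. In the untreated cohort, 6 of 10 libraries, WT mice 3 and 5 and KO mice 1, 3, 4 and 5, had nearly no Y-linked transcripts although labelled male. The same 6 libraries had 104 to 305 CPM of *Xist*, a transcript of female cells. WT mouse 4 had 116 CPM of Y-linked transcripts together with 14.0 CPM of *Xist*. The library labelled KO mouse 1 had 11.7 CPM of *Cpeb2*, within the WT range of 7.69 to 14.3. The libraries of WT mice 1 and 2 also stood apart from the other untreated WT libraries. Brown adipocyte markers were present in every group, with 0 of 12 at 0 and sums of 8512.2 to 21824.4 CPM.

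Per length, the family fell into 2 levels of abundance (CPM per kb of exonic length, mean ± SD over the 12 AAV libraries). *Ifi203* was highest (2.21 ± 0.84), followed by *Ifi211* (1.58 ± 0.85), *Ifi207* (1.54 ± 0.74), *Ifi204* (1.13 ± 0.61) and *Ifi205* (1.10 ± 0.53). A step larger than the spread separated *Ifi205* from *Ifi209* (0.352 ± 0.372), and *Ifi205* was the higher in 12 of 12 libraries. Below *Ifi209* came *Aim2* (0.226 ± 0.221), *Ifi206* (0.140 ± 0.156), *Ifi213* (0.0839 ± 0.1018) and *Ifi208* (0.0251 ± 0.0323). No other pair of neighbours in this order differed by more than the larger of their SDs. In the untreated cohort, which was normalized separately, the same 5 genes formed the upper level (1.78 to 3.85 CPM per kb) and the same 5 the lower (0.0265 to 0.188).

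*Ifi208*, which RefSeq also lists as *Pydc3* (pyrin domain containing), had 33, 35 and 70 counts in the WT + AAV-GFP mice and 9, 15 and 36 in the KO + AAV-GFP mice. It was listed at 0 in all 3 WT + AAV-PRDM16 and all 3 KO + AAV-PRDM16 mice, so the groups did not overlap. In CPM these were 0.296, 0.237 and 0.533 in WT + AAV-GFP and 0.134, 0.135 and 0.250 in KO + AAV-GFP. The mean of *Ifi208* with AAV-GFP was 10.97-fold the mean floor of 3 counts per AAV-PRDM16 library in WT and 4.82-fold in KO. These are ratios of means that cover counting error only. The lowest AAV-GFP value and the highest floor were 0.237 and 0.0351 CPM in WT, and 0.134 and 0.0501 in KO. Exact zeros were in excess throughout these tables. Among 1520 genes with a median count of 10 to 20 in the AAV cohort, 1498 values were 0 while 62 were 1, 185 were 2 and 320 were 3, so a listed 0 need not stand for a counted 0. What made the zeros is not given in the sources used here and their part in the result was not tested. In the whole table, 15 genes were at 0 in all 6 AAV-PRDM16 libraries and above 0 in all 6 AAV-GFP libraries, and 1 showed the reverse. With at least 9 counts in all 6 AAV-GFP libraries there were 2, *Ifi208* and the leukocyte gene *Mcemp1*, and 0 showed the reverse. The cut of 9 is the lowest *Ifi208* count with AAV-GFP, and this split chose the family, so nothing is read from these counts.

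*Aim2*, the cytosolic DNA receptor of the inflammasome, was 0.538, 1.44 and 0.799 CPM in WT + AAV-GFP and 0.0819, 0.210 and 0.212 in WT + AAV-PRDM16. In KO + AAV-GFP it was 0.983, 0.870 and 2.89 CPM, and in KO + AAV-PRDM16 0.337, 0.287 and 0.852. Every AAV-PRDM16 mouse was below every AAV-GFP mouse of its genotype, with log2 fold changes of −2.45 ± 0.64 in WT and −1.71 ± 0.61 in KO (estimate ± SE from edgeR). In KO the nearest values of the groups, 0.852 and 0.870 CPM, were close. *Ifi209* showed the same order, with 0.798, 2.56 and 1.83 CPM in WT + AAV-GFP against 0.480, 0.520 and 0.424 in WT + AAV-PRDM16. In KO it was 0.909, 1.27 and 4.85 CPM with AAV-GFP against 0.664, 0.268 and 0.434 with AAV-PRDM16. These differences of *Ifi209* amounted to log2 fold changes of −1.87 ± 0.62 in WT and −2.37 ± 0.63 in KO.

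*Ifi206* and *Ifi213*, which share their upstream sequence with *Ifi208*, were also low with AAV-PRDM16 but overlapped in WT. *Ifi206* was 0.0359, 0.807 and 0.624 CPM in WT + AAV-GFP and 0.0936, 0.232 and 0.164 in WT + AAV-PRDM16, the first WT + AAV-GFP mouse being the lowest of the 6. In KO it was 0.492, 0.440 and 1.74 CPM against 0.198, 0.148 and 0.167, without overlap. *Ifi213* was 0.224, 0.786 and 0.769 CPM in WT + AAV-GFP and 0.234, 0.144 and 0.0771 in WT + AAV-PRDM16. In KO *Ifi213* was 0.402, 0.664 and 2.65 CPM with AAV-GFP and 0.287, 0.241 and 0.401 with AAV-PRDM16. The lowest AAV-GFP value and the highest AAV-PRDM16 value in KO, 0.402 and 0.401 CPM, were nearly equal, so the groups only just did not overlap. The log2 fold changes in WT and KO were −1.58 ± 0.85 and −2.38 ± 0.87 for *Ifi206*, and −1.97 ± 0.73 and −2.02 ± 0.71 for *Ifi213*. 1 library set much of the size in KO. Without KO + AAV-GFP mouse 3 the KO values were −1.44 for *Ifi206*, −0.80 for *Ifi213*, −0.94 for *Aim2* and −1.26 for *Ifi209*, and without WT + AAV-GFP mouse 2 *Ifi206* in WT was −1.02.

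The 5 abundant members differed less between the viruses. *Ifi203* was 13, 16.5 and 12.2 CPM in WT + AAV-GFP and 12.4, 10.6 and 10.3 in WT + AAV-PRDM16, and 11.3, 18.9 and 30.0 in KO + AAV-GFP against 14.6, 10.4 and 17.8 in KO + AAV-PRDM16. The groups overlapped in both genotypes, as they did for *Ifi205*, *Ifi207* and *Ifi211*. *Ifi204*, the relative of human IFI16, was 4.47, 4.70 and 10.4 CPM in KO + AAV-GFP and 3.65, 2.74 and 4.39 in KO + AAV-PRDM16, without overlap, while the WT groups overlapped. Without overlap, 3 of 10 members were lower with AAV-PRDM16 in WT, against 7.76% of all 18899 genes tested. In KO 6 of 10 were, against 6.05%. For *Ifi204*, *Ifi213* and *Aim2* among them the nearest values of the groups were close, as 4.39 and 4.47 CPM for *Ifi204*. Since this contrast chose the family, nothing is read from these shares.

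Ordered along the chromosome, the size of the difference changed once. The 5 members from *Aim2* to *Ifi208*, which span the first 347.5 kb, include *Ifi208* at 0 and 4 genes with log2 fold changes of −2.45 to −1.58 in WT and −2.38 to −1.71 in KO. Past a gap of 25.0 kb, the 5 members from *Ifi207* to *Ifi205* had values of −0.46 to −0.17 in WT and −0.87 to −0.40 in KO. Without KO + AAV-GFP mouse 3 the KO values were −1.44 to −0.80 for the former 4 and −0.37 to −0.086 for the latter 5. The same division separated the low from the abundant members, so position and abundance cannot be told apart. The division was seen in these values and was not tested. *Ifi214*, a grey gene on the *Aim2* side in the map of the cluster, was 0.0538, 0.258 and 0.145 CPM in WT + AAV-GFP and 0, 0.0221 and 0 in WT + AAV-PRDM16, and it was listed at 0 in 6 of 12 AAV libraries. *Mndal* on the *Ifi205* side was 9.14 ± 1.49 CPM in WT + AAV-GFP and 7.42 ± 1.21 in WT + AAV-PRDM16 (SD, n = 3). *Ifi203-ps* was 5.17 ± 1.54 and 5.10 ± 1.27 CPM in the same groups. In KO + AAV-GFP and KO + AAV-PRDM16 *Mndal* was 12.7 ± 6.1 and 10.1 ± 3.5 CPM, and *Ifi203-ps* 5.70 ± 2.97 and 5.81 ± 1.84. *Ifi202b*, whose product lacks a pyrin domain and which is known to be little expressed in C57BL/6 mice, was at 0 in 11 of 12 AAV libraries.

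**Figure D1:**
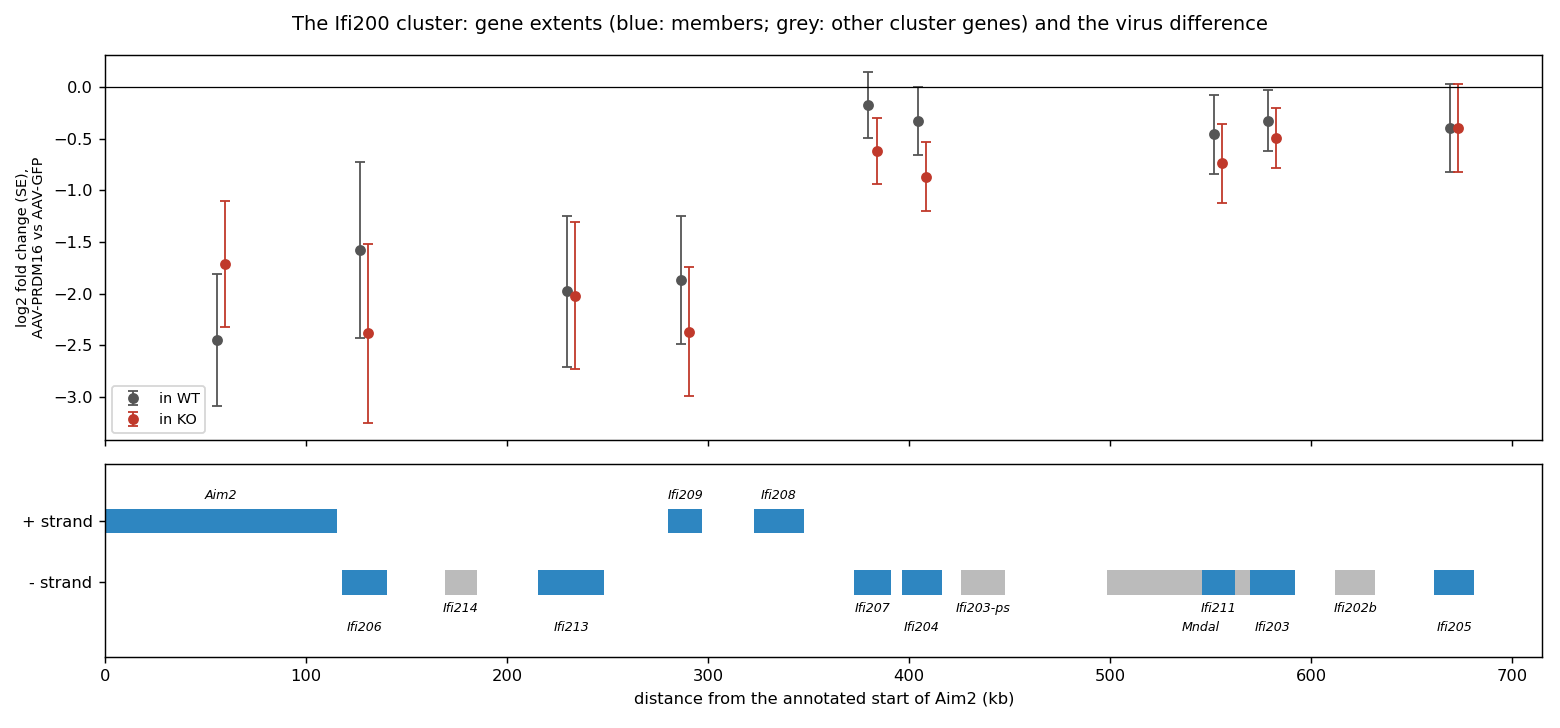
Extent of each gene of the cluster by strand, in kb from the annotated start of *Aim2* (lower panel, members in blue, other cluster genes in grey), and the log2 fold change of AAV-PRDM16 against AAV-GFP with its SE for 9 members in WT and KO (upper panel; *Ifi208*, at 0 with AAV-PRDM16, is not drawn). The 4 genes drawn on the *Aim2* side lie at −1.58 or below in both genotypes and the 5 on the *Ifi205* side at −0.87 or above.

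**Figure D2:**
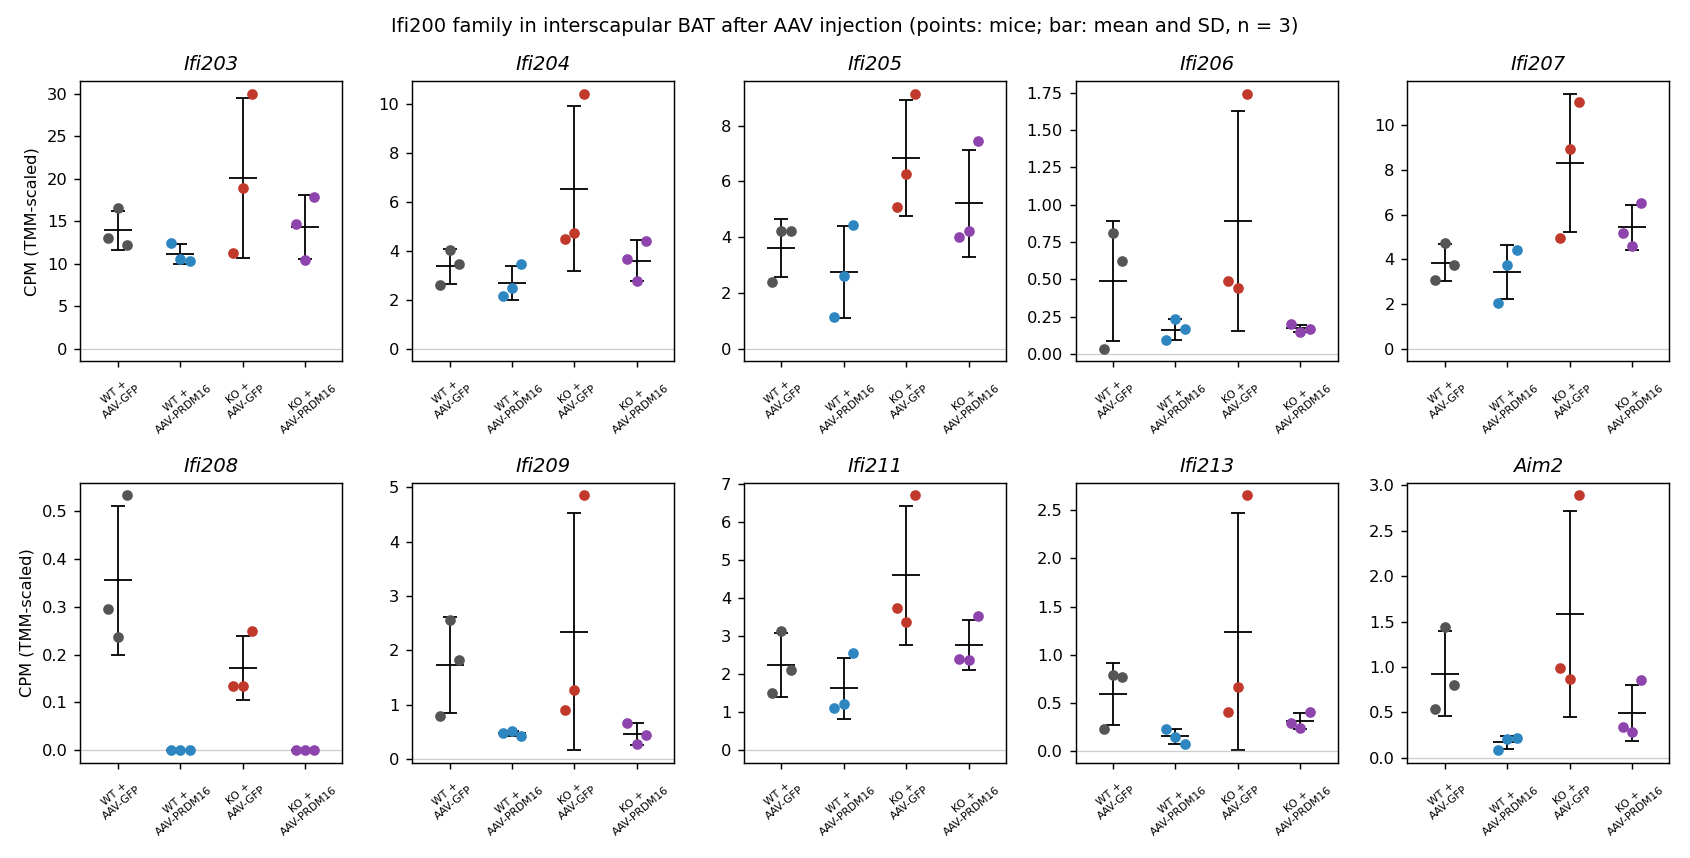
CPM of the 10 members in each of the 12 AAV mice, by group, with the mean and SD (n = 3 per group). *Ifi208* is at 0 in both AAV-PRDM16 groups, and KO + AAV-GFP mouse 3 is the highest point of 9 of the 10 genes.

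*Ptprc* and the macrophage and T cell markers moved with the members, while B cell markers, and dendritic cell markers in KO, overlapped between the viruses. KO + AAV-GFP mouse 3 was highest of all 12 mice for 9 of the 10 members, *Ifi208* excepted, and had the most *Ptprc*, the pan-leukocyte antigen CD45 (44.9 CPM). *Ptprc* was 5.26 to 23.0 CPM in WT + AAV-GFP and 2.82 to 3.62 in WT + AAV-PRDM16, and 10.6 to 44.9 in KO + AAV-GFP and 3.95 to 7.16 in KO + AAV-PRDM16. The sum of 12 macrophage markers was 71.3 to 147 CPM in WT + AAV-GFP against 51.6 to 64.1 in WT + AAV-PRDM16, and 168 to 430 in KO + AAV-GFP against 90.8 to 115 in KO + AAV-PRDM16, with 0 of 12 at 0 in any group. The sum of 8 T cell markers was 1.68 to 20.5 and 0.973 to 1.67 CPM in WT, and 7.92 to 28.9 and 0.704 to 2.15 in KO. B cell markers (6 genes) summed to 1.11 to 2.12 and 0.617 to 1.48 CPM in WT, and 1.24 to 5.83 and 0.925 to 1.39 in KO. Dendritic cell markers (6 genes) summed to 20.3 to 21.6 and 13.9 to 15.3 CPM in WT, with 1 at 0 in WT + AAV-PRDM16. In KO these were 17.9 to 40 and 15.2 to 21.1 CPM. Lymph node stroma markers (6 genes) summed to at most 1.05 CPM with 1 or 2 at 0 in each group. In bulk tissue fewer cells of a type and less RNA per cell cannot be told apart, and the part of these cells in the result was not tested.

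**Figure D3:**
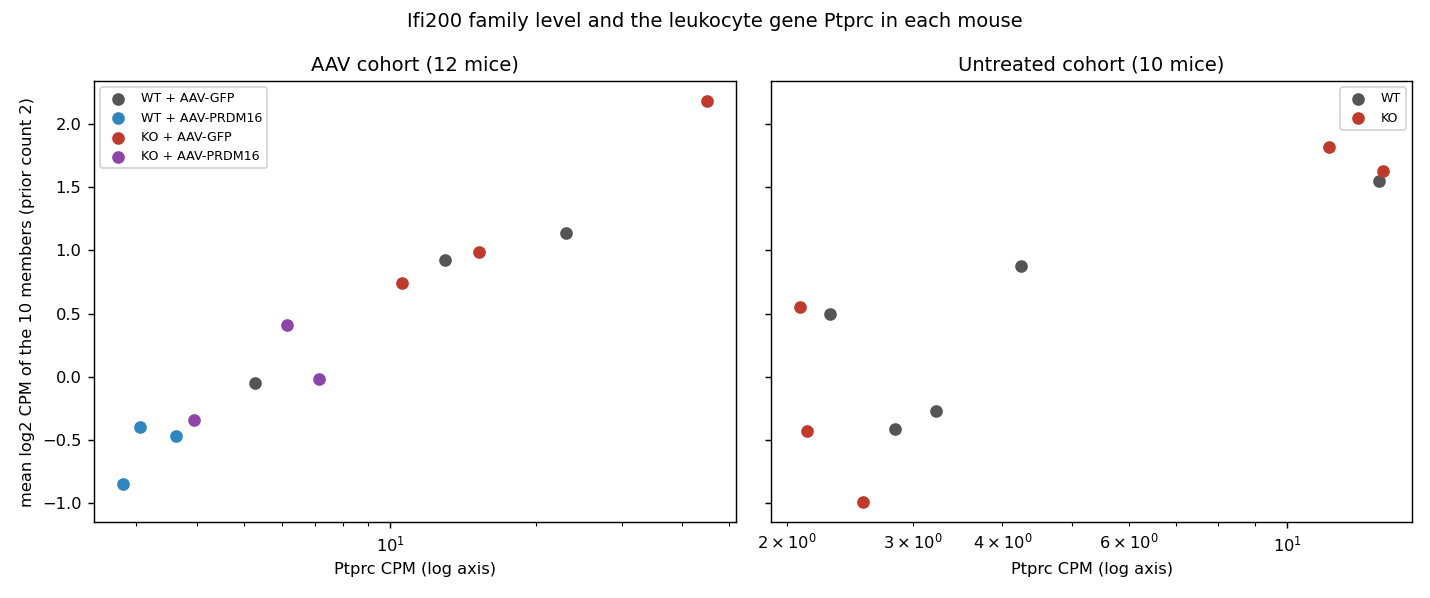
Mean log2 CPM of the 10 members (prior count 2) against *Ptprc* CPM on a log axis, one point per mouse, in the AAV cohort (left) and the untreated cohort (right). In the AAV cohort the mouse with the most *Ptprc*, KO + AAV-GFP mouse 3, has the highest mean, 2.18, and the mouse with the least, WT + AAV-PRDM16 mouse 1, the lowest, −0.85.

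The genes most like *Ifi208* over the 12 AAV libraries (Pearson r of log2 CPM, prior count 2, genes of the cluster left out) were *Mcemp1* (0.96), the T cell receptor segment *Trbv13-2* (0.94), the zinc finger gene *Zfp869* (0.92), the interferon regulatory factor gene *Irf1* (0.92) and the immunoglobulin segment *Igkv2-137* (0.92). All libraries of one virus share the value 0 for *Ifi208*, so these r largely describe the split between the viruses. *Mcemp1* and *Trbv13-2* were at 0 in all 6 AAV-PRDM16 libraries and *Igkv2-137* in 4. *Irf1* was 26.8 ± 2.4 CPM in WT + AAV-GFP and 15.2 ± 0.3 in WT + AAV-PRDM16, and 24 ± 3.3 and 18.0 ± 1.7 in the KO groups (SD, n = 3). Over the 10 untreated libraries r with *Ifi208* was 0.70 for *Irf1*, 0.40 for *Mcemp1* and −0.10 for *Trbv13-2*. The genes most like *Ifi203*, the most abundant member per length, were *Inpp5d*, *Coro1c*, *Elf4*, *Gimap6* and *9930111J21Rik2* (r of 0.94, 0.94, 0.94, 0.94 and 0.93), of which *Inpp5d* encodes a phosphatase of blood cells.

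The comparison of KO with WT did not choose the family and asks whether loss of CPEB2 altered it. With AAV-GFP, 9 of the 10 members were higher in KO and *Ifi208* was lower, with a median log2 fold change of 0.90 against 0.01 over all genes tested. The count of 9 rested in part on 1 library. Without KO + AAV-GFP mouse 3 the estimates of *Ifi206*, *Ifi209*, *Ifi213* and *Aim2* were −0.08, −0.67, −0.15 and −0.01. With all libraries, 0 of 10 passed an adjusted p of 0.05 (edgeR quasi-likelihood test, Benjamini-Hochberg over all genes), against 0.0529% of all genes. In 4 abundant members the KO and WT groups did not overlap. *Ifi207* was 3.07, 4.73 and 3.75 CPM in WT + AAV-GFP and 4.96, 8.95 and 11 in KO + AAV-GFP, a log2 fold change of 1.11 ± 0.32 (adjusted p = 0.315). *Ifi204* was 2.60, 4.03 and 3.45 CPM in WT against 4.47, 4.70 and 10.4 in KO, a log2 fold change of 0.96 ± 0.33 (adjusted p = 0.410). *Ifi211* was 1.5, 3.15 and 2.10 CPM against 3.75, 3.36 and 6.71, a log2 fold change of 1.04 ± 0.38 (adjusted p = 0.443). *Ifi205* was 2.40, 4.2 and 4.22 CPM against 5.09, 6.27 and 9.14, a log2 fold change of 0.92 ± 0.42 (adjusted p = 0.545). For these 4 of 10 members every KO mouse was above every WT mouse, against 6.51% of all genes. The 4 correlated with each other over the 12 AAV libraries (Pearson r of log2 CPM, 0.85 to 0.94). *Ifi211* also shares 44.7% of its 50-base stretches with *Ifi205* and 30.1% with *Ifi204*. The 4 are thus not separate observations, and nothing is read from their number. 3 of 10 members had an unadjusted p under 0.05, against 9.18% of all genes. This count was 1 without KO + AAV-GFP mouse 3, 1 without WT + AAV-GFP mouse 1 and 6 without KO + AAV-GFP mouse 1. DESeq2 called 1 member, *Ifi207* (adjusted p = 0.0419). For *Ifi208* the log2 fold change was −1.02 ± 0.68 (adjusted p = 0.736), and without KO + AAV-GFP mouse 3 every KO value of *Ifi208* was below every WT value.

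Markers of other cells were also higher in KO + AAV-GFP than in WT + AAV-GFP. Of 12 macrophage markers 12 were higher, with a median log2 fold change of 1.07, 10 of them at an unadjusted p under 0.05 and 6 without overlap, and 0 passed an adjusted p of 0.05. All 5 skeletal muscle markers tested were higher, each at an unadjusted p under 0.05 and 0 at an adjusted p of 0.05. Their sum was 0.271 to 0.571 CPM in WT + AAV-GFP, with 3 of 6 at 0, and 0.368 to 79.2 in KO + AAV-GFP, with a median of 0.695. It was 0.187 to 22.6 CPM in WT + AAV-PRDM16 and 0 to 0.981 in KO + AAV-PRDM16. The part of these cells in the members' values was not tested.

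Without KO + AAV-GFP mouse 3 the estimates of 4 low members changed sign. *Ifi209* went from 0.44 to −0.67 on the log2 scale, *Ifi213* from 1.07 to −0.15, *Aim2* from 0.77 to −0.01 and *Ifi206* from 0.87 to −0.08. The 5 abundant members kept their direction without it, at 0.11 for *Ifi203*, 0.44 for *Ifi204*, 0.65 for *Ifi205*, 0.66 for *Ifi211* and 0.85 for *Ifi207*.

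With AAV-PRDM16, 8 of the 9 members with counts were higher in KO and *Ifi209* was lower (−0.06 ± 0.62), and 0 of 9 passed an adjusted p of 0.05 with edgeR (0.0476% of all genes) or with DESeq2. *Aim2* had the largest estimate, 1.51 ± 0.64 (adjusted p = 0.322), and was the 1 member of 9 with an unadjusted p under 0.05, against 13.7% of all genes. Without KO + AAV-PRDM16 mouse 3, which had 0.852 CPM, that estimate was 0.88, and 0 members then had an unadjusted p under 0.05, as without WT + AAV-PRDM16 mouse 1, while 4 had without WT + AAV-PRDM16 mouse 3 and 3 without KO + AAV-GFP mouse 3. *Ifi207*, *Ifi213* and *Aim2* were higher in every KO mouse than in every WT mouse, 3 of 10 members against 11.5% of all genes. *Ifi208* was at 0 in both groups and has no fold change.

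Averaged over both viruses, all 9 members with a fold change were higher in KO, between 0.19 and 1.14 on the log2 scale, with 0 of 9 at an edgeR adjusted p of 0.05 (2.18% of all genes) and 5 of 9 at an unadjusted p under 0.05 (18.3%). The 5 were *Ifi207* (0.89 ± 0.23, adjusted p = 0.0621), *Ifi211* (0.90 ± 0.27, adjusted p = 0.101), *Ifi205* (0.92 ± 0.30, adjusted p = 0.122), *Ifi204* (0.69 ± 0.23, adjusted p = 0.137) and *Aim2* (1.14 ± 0.43, adjusted p = 0.179). DESeq2 called 4 of these, *Ifi204*, *Ifi205*, *Ifi207* and *Ifi211*, at adjusted p of 0.0415, 0.0233, 0.00320 and 0.0176. These 4 genes correlated with each other and *Ifi211* shares sequence with the others, so the calls are not separate observations. With the replicate number as a block edgeR called *Ifi205* and *Ifi207* (adjusted p = 0.0311 and 0.0336). Without KO + AAV-GFP mouse 1 edgeR called 1 member, *Ifi207*. Of 12 macrophage markers, 4 rose in KO in this comparison, *Itgam* by 1.70 ± 0.37 on the log2 scale, *C1qb* by 1.14 ± 0.27, *Csf1r* by 1.02 ± 0.21 and *Mrc1* by 0.88 ± 0.17 (edgeR adjusted p of 0.0379, 0.0497, 0.0349 and 0.0264). Of 12 brown adipocyte markers 2 fell, with log2 fold changes of −0.66 for *Cox8b* and −0.39 for *Cidea* (adjusted p = 0.0189 and 0.0378). The part of macrophage content in the members' values was not tested. The difference between viruses in the effect of genotype, the interaction, passed the threshold for 0 of 9 members (0% of all genes), and 0 of 9 had an unadjusted p under 0.05 (3.19%), nor did DESeq2 call any.

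**Figure D4:**
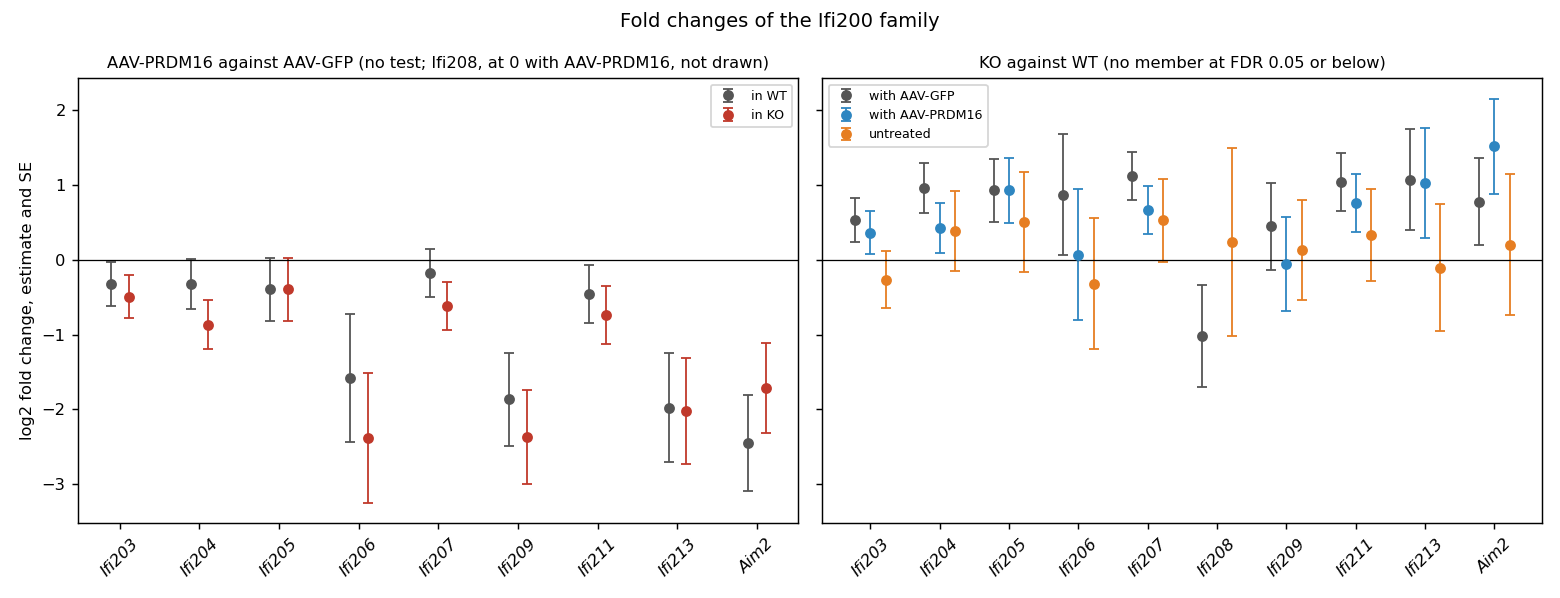
Log2 fold change with its SE for each member, AAV-PRDM16 against AAV-GFP in WT and KO (left) and KO against WT with AAV-GFP, with AAV-PRDM16 and in untreated mice (right). In the AAV comparisons of genotype all estimates but *Ifi208* with AAV-GFP and *Ifi209* with AAV-PRDM16 lie above 0, while the untreated estimates lie between −0.32 and 0.52, and no estimate of genotype passed an edgeR adjusted p of 0.05.

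In untreated mice the genotypes did not separate. They were also not balanced for Y-linked transcripts, which were nearly absent in WT mice 3 and 5 and KO mice 1, 3, 4 and 5. 7 of 10 members had a positive and 3 a negative estimate of KO against WT, between −0.32 and 0.52 on the log2 scale, and 0 of 10 passed an adjusted p of 0.05 (0% of all genes) with edgeR, or with DESeq2, or had an unadjusted p under 0.05 (15.9%). No member was higher (0.492% of all genes) or lower (0.907%) in every KO mouse. The spread within a genotype was large. *Ifi205* was 2.00, 2.12, 19.3, 19.9 and 16.4 CPM in WT and 35.7, 19.8, 7.28, 15.1 and 6.79 in the libraries labelled KO, and the difference was 0.50 ± 0.67 on the log2 scale (adjusted p = 0.685). *Ifi207* was 4.68, 2.71, 13.6, 21.4 and 11.7 CPM in WT and 24.9, 27.7, 7.70, 10.9 and 6.36 in KO, a difference of 0.52 ± 0.56 (adjusted p = 0.609). WT mice 1 and 2, the libraries that stood apart, were the lowest of the 10 for *Ifi205* and *Ifi207*, and for *Ifi211* at 1.58 and 1.45 CPM, but not for *Ifi203* at 14.1 and 9.31 CPM. Without these 2 mice *Ifi205* was −0.10 and *Ifi211* −0.23 on the log2 scale.

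*Ifi208* was 0, 4, 0, 58 and 17 counts in the untreated WT mice and 26, 29, 0, 3 and 12 in the untreated KO mice, so listed zeros also occurred without any virus, in 3 of 10 libraries. *Aim2* was 0.298, 0.397, 0.294, 1.35 and 0.364 CPM in WT and 1.0, 1.47, 0.150, 0.477 and 0 in KO. *Ifi209* lay between 0.259 and 1.13 CPM in WT and between 0.138 and 1.60 in KO, *Ifi213* between 0.163 and 0.764 and between 0 and 0.709, and *Ifi206* between 0.0863 and 0.279 and between 0 and 0.369. KO mouse 1, the library with *Cpeb2* in the WT range, was the highest of the 10 libraries for 5 members. *Ptprc* was 13.4 CPM in WT mouse 4, 11.4 in KO mouse 1 and 13.6 in KO mouse 2 and at most 4.24 in the other 7 libraries, and the 3 libraries also had the highest mean of the members. The sum of macrophage markers ranged from 55.5 to 393 CPM in WT and from 86.3 to 529 in KO, and the sum of 6 skeletal muscle markers from 11.6 to 2799.7 and from 6.31 to 5490.1, with 0 at 0 in both. Their part in the values was not tested.

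**Figure D5:**
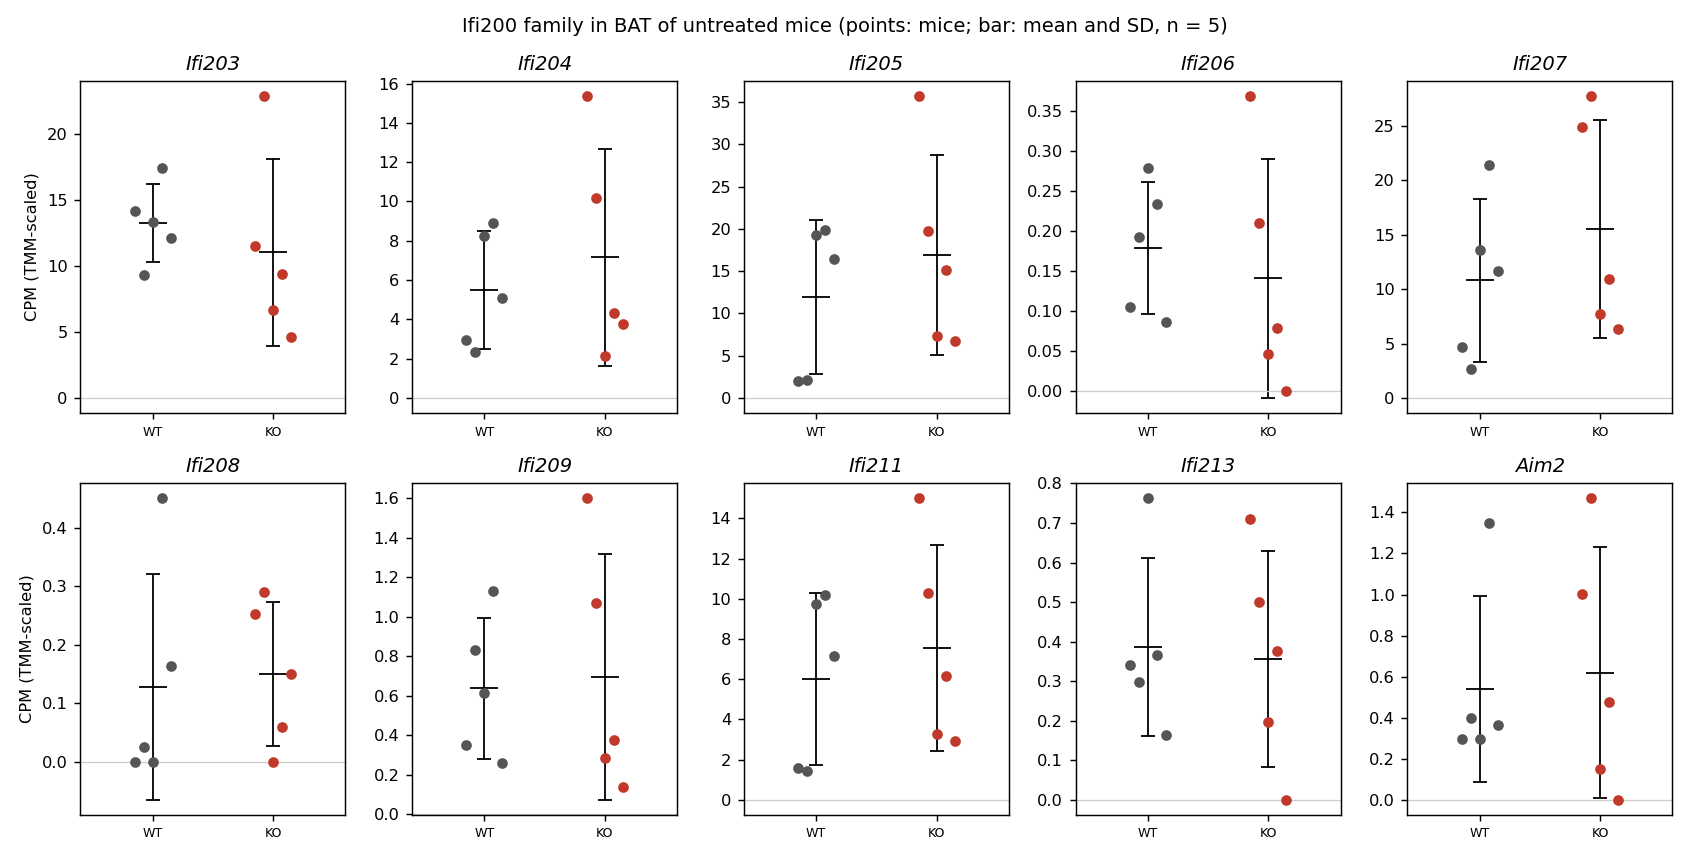
CPM of the 10 members in each untreated mouse, WT and KO, with the mean and SD (n = 5 per genotype). The groups overlap for every gene, and for *Ifi205* 2 WT mice lie near 2 CPM while the other WT mice lie between 16.4 and 19.9.

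Genes that act with the family were read from lists of DNA sensors, the inflammasome, interferon signalling and interferon-stimulated genes. Between the viruses, again as a description, 10 of 11 inflammasome genes and 16 of 16 interferon-stimulated genes were lower with AAV-PRDM16 in WT and in KO, where 52.1% and 51.5% of all genes were lower. For interferon signalling these were 12 of 12 in WT and 8 of 12 in KO, and for DNA sensing 15 of 24 and 18 of 24. *Gbp2*, an interferon-induced GTPase and the most abundant interferon-stimulated gene in the AAV cohort, was 46.6 ± 23.8 CPM in WT + AAV-GFP and 15.8 ± 4.0 in WT + AAV-PRDM16. *Casp1*, the protease that AIM2 activates through ASC, was 0.921 ± 0.250 and 0.666 ± 0.162 CPM in WT and 2.00 ± 1.08 and 0.816 ± 0.351 in KO (SD, n = 3). *Gsdmd*, the pore-forming target of caspase-1, was 2.52 ± 0.36 and 1.76 ± 0.30 CPM in WT. *Casp8*, a caspase of the death receptor pathway, was 8.45 ± 1.19 and 9.17 ± 1.22 CPM. *Ifi27l2a* and the antiviral gene *Rsad2*, also among the most abundant interferon-stimulated genes, had log2 fold changes of −0.28 ± 0.51 and −0.11 ± 0.26 in WT and −0.30 ± 0.51 and −0.12 ± 0.26 in KO. *Xrcc6*, a subunit of the Ku heterodimer and the most abundant gene of the DNA sensing list, was 132 ± 35 and 152 ± 11 CPM in WT, with overlap. The nuclease gene *Samhd1* was 29.2 ± 5.3 and 18.6 ± 1.1 CPM, and *Irf3*, the transcription factor that STING signalling activates, 24.2 ± 2.4 and 24.4 ± 1.5 CPM. In interferon signalling, the kinase gene *Jak1* was 98.3 ± 5.1 and 94.9 ± 8.3 CPM, and the receptor gene *Ifnar2* 73.3 ± 3.3 and 67.7 ± 5.6 CPM.

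Between the genotypes, averaged over both viruses, 1 of 12 interferon signalling genes and 1 of 16 interferon-stimulated genes rose in KO, and 0 of 24 DNA sensing and 0 of 11 inflammasome genes passed the threshold. Of all genes tested, 2.18% passed it in either direction. At an unadjusted p under 0.05, 5 DNA sensing genes were higher and 4 lower, and 3 inflammasome, 1 interferon signalling and 5 interferon-stimulated genes were higher, where 18.3% of all genes had such a p in either direction. *Ifngr1*, the ligand-binding chain of the interferon gamma receptor, rose by 0.66 ± 0.11 on the log2 scale (edgeR adjusted p = 0.0145). *Oasl2*, an oligoadenylate synthetase-like gene induced by interferon, rose by 0.94 ± 0.22 (adjusted p = 0.0475). The median log2 fold change was 0.69 for the inflammasome list, 0.54 for interferon-stimulated genes, 0.12 for interferon signalling and 0.09 for DNA sensing, against 0.01 over all genes. *Casp1* was 0.71 ± 0.30 (adjusted p = 0.225). With AAV-GFP alone, with AAV-PRDM16 alone and in untreated mice, 0 genes of the 4 lists passed the threshold of the edgeR test. In untreated mice 6 DNA sensing genes were higher and 2 lower at an unadjusted p under 0.05, and 0 inflammasome or interferon-stimulated genes had such a p, against 15.9% of all genes. Among the most abundant genes of the lists in untreated mice, *Unc93b1* was 0.95 ± 0.30 (adjusted p = 0.305), *Casp4* 0.93 ± 0.82 (adjusted p = 0.530) and *Bst2* 0.66 ± 0.39 (adjusted p = 0.378) on the log2 scale.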

How the data were processed

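RNA of BAT from 22 mice was sequenced by the study with an mRNA library kit (SureSelect XT HS2). The values are whole-number read counts per gene, which the authors deposited as 1 table of 10 untreated and 1 table of 12 AAV libraries. The submitters' processing notes name bcl2fastq 2.20, Trimmomatic 0.36, HISAT2 and the GRCm38.p6 assembly, while the study's methods name BCL Convert for base calls. The counting tool, the annotation release, the use of strand and the treatment of duplicate and multi-mapping reads are not given in the sources used here. Samples were grouped by genotype and treatment as labelled.

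From these counts, 55141 of 55487 identifiers were given symbols from the GENCODE annotation of GRCm38, which need not be the authors' release. Each cohort was fitted with edgeR 4.0.16 (filterByExpr by group, TMM scaling, quasi-likelihood test), leaving 17869 genes for untreated mice and 18899 for AAV mice, where the 4 groups share 1 estimate of dispersion. Adjusted p-values are Benjamini-Hochberg over all genes tested, with a threshold of 0.05, and two-sided. The SE is the log2 fold change over the root of the test's F. CPM are counts per 1000000 TMM-scaled reads, and exonic length is the union of a gene's exons. The script was tested on simulated data. Each comparison of genotype was recomputed with DESeq2 1.42.0, with RLE scaling, on unfiltered genes, with each library left out and with a replicate block. These comparisons were also read at 2-fold and an adjusted p of 0.5. Some were refitted on subsets of libraries, and the untreated one with a Y-linked term. The difference between the viruses was recomputed only with RLE scaling and with each library left out. No 2 libraries of a group agreed within sampling noise (median chi-square per gene at least 5.06). Libraries of a group carry different mouse numbers and are taken as separate animals.

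The members, lists and tests were chosen with earlier results of these data known. Named are the 10 members, the cluster genes, the most abundant and the called genes of each list, the 5 genes most like *Ifi208* and the most abundant member, and *Cpeb2* and *Prdm16*. 1 abundant gene of these lists is not reported here.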

Additional observations from a re-analysis of the deposited data

Results flagged for a closer look

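In the untreated WT group the *Aim2* value of mouse 4, 1.35 CPM, lay far from the other 4 mice, the nearest of which had 0.397 CPM. The gap was 0.902 of the group's whole range, with n = 5. This was 1 of 20 combinations of member and untreated group examined, so it may have arisen by chance, at a rate that was not computed. The same mouse had 13.4 CPM of *Ptprc*, the most of the untreated WT mice. Whether the leukocyte content bears on the *Aim2* value was not tested.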

How the results depend on the processing

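With edgeR, 0 members passed an adjusted p of 0.05 in any comparison of genotype. With AAV-GFP, DESeq2 called 1, and 2-fold at an adjusted p of 0.5 called 2, *Ifi207* and *Ifi211*, among 341 genes. With AAV-PRDM16 that threshold called 1, *Aim2*, among 916 genes. Averaged over both viruses, DESeq2 called 4, 2-fold at an adjusted p of 0.5 called 2, *Ifi213* and *Aim2*, among 930 genes, and leaving out 1 library gave 0 to 1, the 1 being *Ifi207* without KO + AAV-GFP mouse 1. The replicate block called 2 in the averaged comparison and 0 in the others. The numbers do not pair the mice: deviations of same-numbered mice correlated between −0.09 and 0.19 (18 AAV pairs) and between −0.31 and 0.11 (5 untreated pairs). In untreated mice the block gave *Ifi209* −0.25 and *Aim2* −0.51 on the log2 scale. Without WT mice 1 and 2 the untreated estimates were −0.018 for *Ifi204*, −0.10 for *Ifi205*, −0.37 for *Ifi208*, −0.23 for *Ifi211* and −0.061 for *Aim2*. In the 6 libraries without Y-linked transcripts they were −0.059 for *Ifi204*, −0.14 for *Ifi205*, −0.017 for *Ifi207* and −0.30 for *Ifi211*. That set also leaves out WT mice 1 and 2, so the 2 refits are not separate checks. Leaving out 1 library changed further signs. Untreated log2 fold changes ranged from −0.11 to 0.62 for *Ifi204*, −0.10 to 1.65 for *Ifi208*, −0.44 to 0.44 for *Ifi209*, −0.087 to 0.60 for *Ifi211*, −0.52 to 0.29 for *Ifi213* and −0.41 to 0.87 for *Aim2*. The lowest values of *Ifi204*, *Ifi209*, *Ifi211* and *Ifi213* came without KO mouse 1, the library with *Cpeb2* in the WT range. Those of *Ifi208* and *Aim2* came without KO mouse 2. The highest came without WT mouse 4, or for *Ifi213* without WT mouse 3. With AAV-GFP they ranged from −0.079 to 1.43 for *Ifi206*, −0.67 to 0.84 for *Ifi209*, −0.15 to 1.48 for *Ifi213* and −0.0067 to 1.24 for *Aim2*, the lowest each without KO + AAV-GFP mouse 3. With AAV-PRDM16 they ranged from −0.21 to 0.40 for *Ifi206* and −0.45 to 0.22 for *Ifi209*, and averaged from −0.0091 to 0.75 and −0.37 to 0.39. The causes were not tested. Between the viruses, the 9 members with a fold change stayed lower with AAV-PRDM16 under the alternatives run, except *Ifi207* in WT, which was 0.09 without WT + AAV-PRDM16 mouse 1 and 0.0013 without WT + AAV-GFP mouse 2. Low counts limit *Ifi208*, *Ifi213* and *Ifi206* most.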
